A study of Mus musculus with 12 samples.

Results

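The genes described here encode the core of the splicing machinery and the hnRNP proteins. They were chosen by symbol and biotype: protein-coding genes whose symbol begins with Srsf, Sf3a, Sf3b or Prpf and a number, or with Hnrnp, Snrp or U2af. The rule takes 68 of the 25093 genes counted: 20 Hnrnp, 13 Prpf, 12 Snrp, 11 Srsf, 9 Sf3 and 3 U2af genes. A further 3 symbols match the pattern but are pseudogenes and are not among them. In quiescent satellite cells, nearly all of these genes were counted well above the typical gene. None was called different between control and Gli3-deleted libraries, where 0.351% of all genes were called. That share is too small for 0 of 68 to set these genes apart. The largest departure within the set followed a single control library, in which 50 of the 68 genes stood at their highest level of the 6 libraries.

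Satellite cells, the stem cells of skeletal muscle, were sorted from hindlimb muscles of tamoxifen-treated mice aged 3 to 4 months, and polyadenylated RNA was sequenced with strand information. Control mice were Pax7-CreERT2/+;Gli3+/+;R26R-YFP (written Gli3+/+, or Ctr) and conditional knockouts were Pax7-CreERT2/+;Gli3fl/fl;R26R-YFP (Gli3∆/∆, or KO), so that both carry the tamoxifen-inducible Cre driven by Pax7 and the YFP reporter, and the KO loses exon 8 of Gli3. Quiescent satellite cells (QSCs) came from uninjured muscle by an α7-integrin+, CD34+ gate that removes CD31, CD45, SCA1 and CD11b cells, with 3 libraries per genotype and 2 to 3 mice combined in each. Activated satellite cells (ASCs) were sorted 3 days after cardiotoxin injury, with VCAM1 in place of CD34 and 1 mouse per library; of the series' 12 libraries, these 6 enter here only through the authors' mean over all libraries.

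Splicing removes introns from pre-mRNA in the spliceosome, which assembles on each intron from small nuclear ribonucleoproteins (snRNPs). The Snrp genes encode the Sm proteins that ring the small nuclear RNAs and proteins particular to the U1 or U2 snRNP. The U2AF proteins recognise the 3′ splice site, the SF3A and SF3B proteins hold the U2 snRNP at the branch point, and several PRPF proteins belong to the U4/U6.U5 tri-snRNP that brings the catalytic core. SR proteins, encoded by the Srsf genes, mostly bind exonic enhancers and favour exon inclusion, while hnRNP proteins coat nascent transcripts and often favour exon skipping. Many of these genes control their own splicing, and most are used by nearly every cell, so that they are usually taken as general processing genes rather than as markers of a tissue.

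The QSC libraries held between 39556784 and 65750131 estimated counts, and levels are given as CPM, counts scaled to a common library size with edgeR's TMM factors. Pax7, the defining satellite cell gene, was counted at 1052, 884 and 1036 CPM in Ctr and at 945, 1157 and 798 CPM in KO. Gli3 itself stood at 11.2, 9.71 and 9.75 CPM in Ctr and at 9.54, 10.5 and 6.25 CPM in KO, and counts over the whole gene do not check a deletion of exon 8. Ptprc, a leukocyte gene, lay at or below 2.11 CPM in every library. The 11 macrophage and neutrophil markers summed to 44.1 CPM in Ctr replicate 1 and 11.6 to 23 CPM elsewhere. The 7 erythroid and platelet markers summed to 379 CPM in Ctr replicate 1 and 33.8 to 169 CPM elsewhere. The 10 genes of the dissociation response were also highest there, at 59260.3 CPM against 41958 to 46516 CPM. Endothelial markers summed to between 149 and 240 CPM over the 6 of 6 genes counted. In such bulk samples, fewer cells of a type and less RNA per cell cannot be told apart.

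All but 3 of the 68 genes had a mean of at least 10 CPM over the QSC libraries, a level that 9592 of all genes reached. The 3 below it were Snrpf (8.88 CPM), Snrpn (2.7 CPM), which encodes the SmN protein best known from neurons, and Srsf12 (0.0751 CPM), a rarely expressed SR-related gene. Set per kilobase of merged exon length, for a rough comparison of genes, the median of the set was 22.1 CPM per kb, against 9.26 for genes of at least 10 CPM. Merged exon length joins all annotated exons of a gene and can exceed the length of the transcripts present. Levels per kb, and the order of genes and families by them, therefore depend in part on the annotation. By family, the median level per kb was 64.4 CPM for Hnrnp, 42.3 for Srsf, 22.3 for U2af, 20.3 for Sf3, 16.4 for Prpf and 12.2 for Snrp.

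The highest level per kb belonged to Srsf5 (ENSMUSG00000021134.17, GRCm38 chr12:80945504-80950507), an SR protein gene known for its fast response to growth signals. It stood at 215, 210.3 and 248 CPM per kb in Ctr and 219, 203 and 160.1 in KO. Hnrnpa1 (ENSMUSG00000046434.16, chr15:103240432-103246692), whose protein shuttles between nucleus and cytoplasm and silences exons, followed at 176, 183 and 251 CPM per kb in Ctr and 203, 192 and 197 in KO. Their order changed between libraries, so it is within the spread. Hnrnph1, at a mean of 170 CPM per kb, and Hnrnpa2b1, at 165, came next, and their order relative to each other changed between libraries, while Srsf5 was above both in all 6.

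The other families each had a leading gene at a similar level per kb. Among the Snrp genes this was Snrpb, which encodes the Sm proteins B and B′, at a mean of 63.2 CPM per kb. Prpf8, the scaffold of the catalytic core, led the Prpf genes at 60.8 CPM per kb, and the lowest was Prpf38a at 4.99. U2af2, the large U2AF subunit that binds the polypyrimidine tract, was at 56.3 CPM per kb, and U2af1, the small subunit that reads the AG of the 3′ splice site, at 22.3. Sf3b1, the branch point subunit that is often mutated in blood cancers, led the Sf3 genes at 52.2 CPM per kb, while Sf3b5, which encodes a small subunit of the same complex, had 4.4. The ranges of these 4 leading genes overlap across libraries, though Snrpb and Prpf8 were each above Sf3b1 in all 6 libraries.

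The question of the genotype comparison was whether deletion of Gli3, a transcription factor of Hedgehog signaling, changes transcript levels in QSCs. A gene was called when edgeR's quasi-likelihood test gave a Benjamini-Hochberg adjusted p under 0.05 with a fold change of at least 1.2. Of the 68 splicing and hnRNP genes, 0 were called, against 0.351% of all 25093 genes (88 genes) and 0.365% of genes of at least 10 CPM. DESeq2 also called 0 of them, against 1.53% of all genes, as did limma-voom, against 0.291%. At an unadjusted p under 0.05, edgeR gave 0 of the 68 where 7.11% of all genes and 6.61% of genes of at least 10 CPM had such a p, DESeq2 gave 1 (Hnrnpa2b1) where 7.26% of all genes had one, and limma-voom gave 1 (Snrpd2) where 9.37% did.

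The intervals bounded most of these differences. For 66 of the 68 the 95% interval of the fold change lay within 2-fold in either direction, and for 55 it lay within 1.5-fold. The genes whose interval went past 2-fold were Hnrnpab, from -1.02 to 0.38 on the log2 scale, and Srsf12, from -2.06 to 3.64. Srsf12 was counted at no more than 0.153 CPM in any library, so its fold change was not detectable at this depth.

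**Figure D1:**
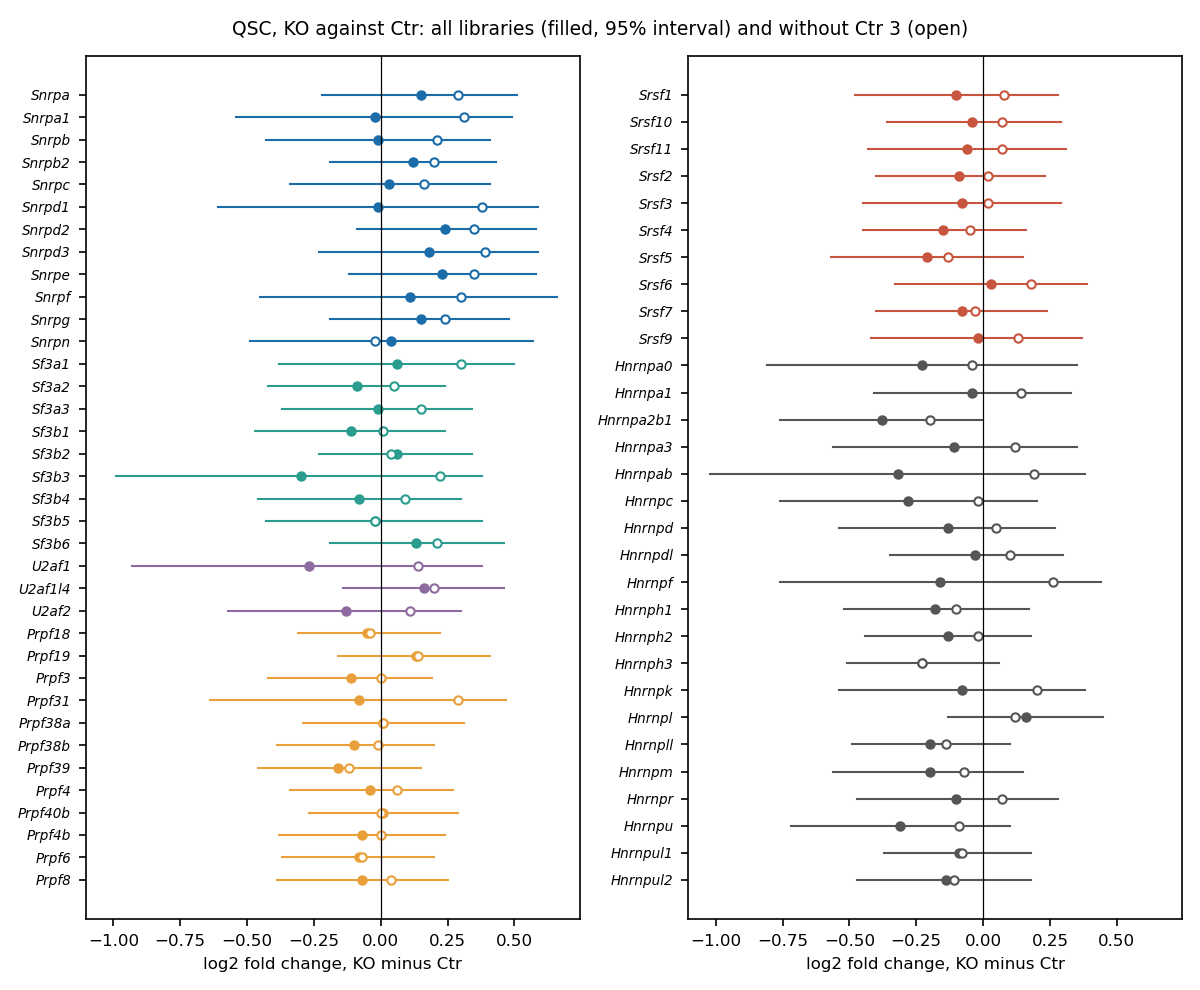
Log2 fold change, KO minus Ctr, for 66 splicing and hnRNP genes (Srsf12, whose interval is wider than the axis, and another gene are not drawn), coloured by family. Filled points are the fit to all 6 QSC libraries with its 95% interval, and open points the fit without Ctr replicate 3: every interval meets 0, and most open points lie to the right of the filled ones.

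Hnrnpa2b1 (ENSMUSG00000004980.16, chr6:51460932-51469894) came closest to the threshold. Its proteins, hnRNP A2 and B1, regulate splicing and carry RNAs through the cytoplasm. It was counted at 1056, 1103 and 1523 CPM in Ctr and at 1023, 896 and 910.3 CPM in KO. Every KO library lay below every Ctr library, though the first KO library was close to the first Ctr library and Ctr replicate 3 stood far above the rest. The log2 fold change was -0.38 ± 0.17 (SE) with an adjusted p of 0.707 by edgeR, and -0.20 ± 0.12 without Ctr replicate 3.

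The groups were separate for only 3 of the 68 genes, where 13% of all genes and 12.5% of genes of at least 10 CPM had groups that do not overlap. The second was Hnrnph3 (ENSMUSG00000020069.16, chr10:63014664-63024217), which encodes a G-tract binding hnRNP of the H family. It stood at 82.6, 98.1 and 90.5 CPM in Ctr and at 76.3, 75.7 and 79.8 CPM in KO. All KO libraries were below all Ctr libraries, and here Ctr replicate 3 was in the middle of its group, so the log2 fold change of -0.23 ± 0.13 (edgeR, adjusted p = 0.809) was also -0.23 without it. The last was U2af1l4 (ENSMUSG00000078765.11, chr7:30563301-30565365), a paralog of the small U2AF subunit, at 19.4, 20.5 and 21.8 CPM in Ctr and 24.3, 22.2 and 22.5 CPM in KO. Its KO libraries were all higher, by a narrow margin, with a log2 fold change of 0.16 ± 0.13 and an adjusted p of 0.896 by edgeR.

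Among the other Hnrnp genes, Hnrnpu, a nuclear scaffold protein gene, had the next lowest p, at a log2 fold change of -0.31 ± 0.18 (edgeR, adjusted p = 0.835), which was -0.09 without Ctr replicate 3. It was counted at 731, 762 and 1115 CPM in Ctr and 742, 717 and 645 in KO, so the groups overlap and the high value is again Ctr replicate 3. Hnrnpll, known for regulating CD45 splicing in T cells, had means of 102 ± 7.95 CPM in Ctr and 88.9 ± 6.79 CPM in KO (SD, n = 3 each). Hnrnpl, its paralog, had a higher mean in KO, at 342 ± 18.1 CPM in Ctr and 382 ± 29.8 CPM in KO. It was the 1 Hnrnp gene of 20 with this direction when all libraries were used, and without Ctr replicate 3 there were 9 of 20. Hnrnpk, Hnrnpc and Hnrnpm, all abundant RNA-binding proteins' genes, had log2 fold changes of -0.08, -0.28 and -0.20, none called, and of 0.20, -0.02 and -0.07 without Ctr replicate 3.

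The 11 SR protein genes had a median log2 fold change of -0.08, and of 0.07 without Ctr replicate 3, when 8 of them were higher in KO. Srsf1, the founding member of the family, was counted at 258, 272 and 374 CPM in Ctr and 286, 293 and 264 CPM in KO. Srsf2 had 393 ± 48.8 CPM in Ctr and 369.9 ± 23.6 CPM in KO, and Srsf3, the smallest SR protein's gene, 345 ± 52 and 326 ± 42.7 CPM (SD, n = 3 each). Srsf7 had log2 fold change -0.08 ± 0.14. Srsf5 had the largest difference in this family apart from Srsf12: 857, 839 and 990.5 CPM in Ctr against 875, 811 and 639 CPM in KO. The first KO library was above 2 of the Ctr libraries and KO replicate 3 was the lowest, and the log2 fold change was -0.21 ± 0.16 (edgeR, adjusted p = 0.892).

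None of the 9 Sf3 and 13 Prpf genes, of the U2 snRNP and mostly of the tri-snRNP and activation complexes, had an unadjusted p under 0.05 by edgeR. Sf3b1 was at 617 ± 86.7 CPM in Ctr and 570.1 ± 65.8 CPM in KO, and Sf3a1, which encodes a subunit of the SF3A complex, at 95.9 ± 25.6 and 99.8 ± 11.2 CPM (SD, n = 3 each). Without Ctr replicate 3 their log2 fold changes were 0.01 and 0.30. Prpf8 had a log2 fold change of -0.07 ± 0.14 (0.04 without Ctr replicate 3), and Prpf19, which encodes the ubiquitin ligase of the complex that activates the spliceosome, 0.13 ± 0.13. Of the 13 Prpf genes, 12 had an interval within 1.5-fold.

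**Figure D2:**
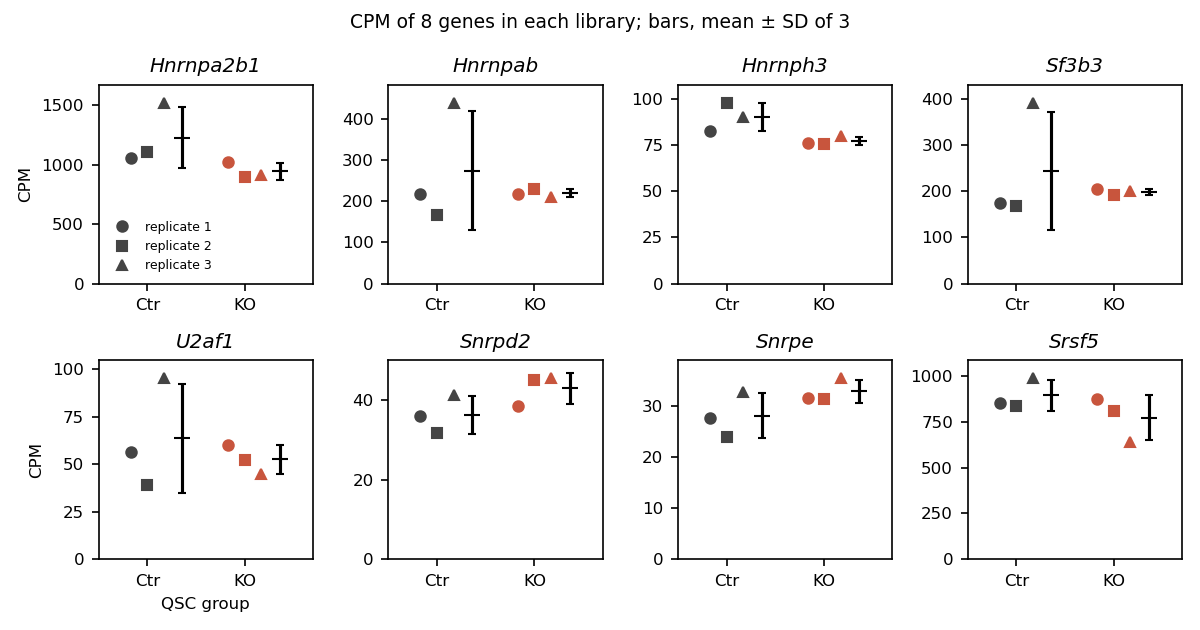
CPM of 8 of the genes in each QSC library, by genotype, with the axis from 0; the bar beside each group is its mean ± SD (n = 3 libraries). Ctr replicate 3 (triangle) stands apart from the other Ctr libraries for Hnrnpab, Sf3b3 and U2af1, and Hnrnph3 shows separate groups without it.

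The spread among these genes was dominated by Ctr replicate 3. That library held the highest CPM for 50 of the 68 genes. It was the highest for 23.2% of all genes and for 33.8% of genes of at least 10 CPM. Among the 177 other splicing genes described further below, it was the highest for 98. The set took 1.67% of all counts there, compared with 1.40% and 1.41% in the other Ctr libraries and 1.47%, 1.41% and 1.35% in the KO libraries. On the CPM scale the summed level was 18269 CPM in Ctr replicate 3 and between 13431 and 14556 CPM in the other 5 libraries. In that library the median gene of the set lay 0.31 on the log2 scale above its mean over the other 5 libraries. The median gene of at least 10 CPM lay 0.03 above.

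The pattern was present in every family but not to the same extent. Ctr replicate 3 was the highest library for 17 of 20 Hnrnp genes, 10 of 11 Srsf genes, 9 of 13 Prpf genes, 6 of 9 Sf3 genes, 2 of 3 U2af genes and 6 of 12 Snrp genes. Summed over the family, Hnrnp genes reached 10023 CPM there and 7022 to 7491 CPM elsewhere. Prpf genes reached 1967 CPM there and 1668 to 1758 CPM elsewhere.

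**Figure D3:**
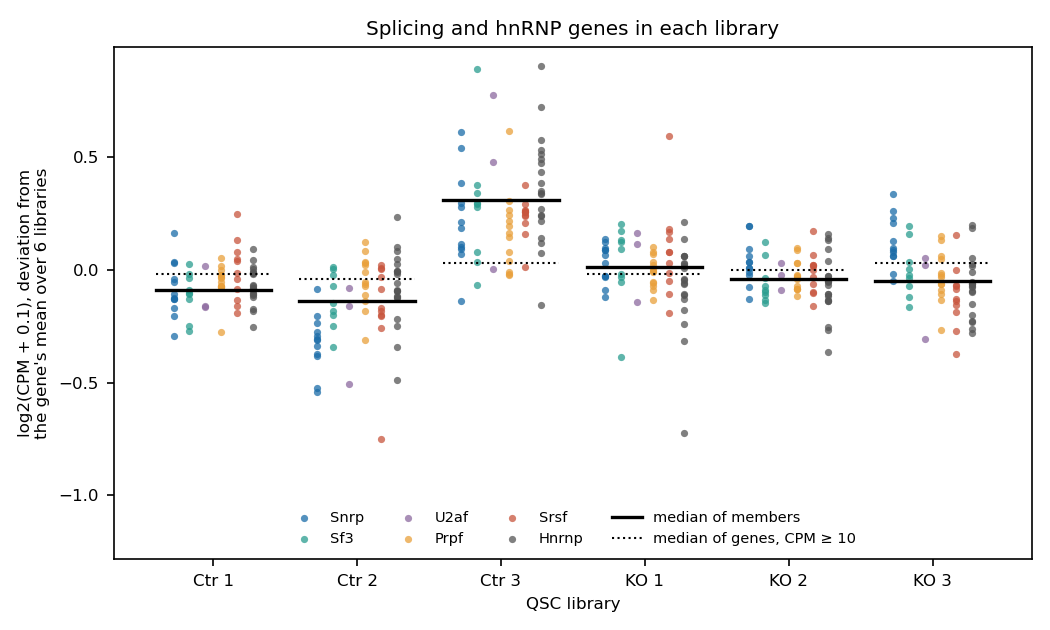
Deviation of each of the 68 genes from its own mean over the 6 QSC libraries, as log2(CPM + 0.1), by library and family (points). Solid lines mark a median over the 68 genes and dotted lines that over all genes of at least 10 CPM. For the lines, each gene is set against its mean over the remaining libraries. The solid lines are therefore not the medians of the points. The solid line stands at 0.31 in Ctr 3 and between -0.14 and 0.01 in the other libraries.

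The gene with the greatest excess was Hnrnpab (ENSMUSG00000020358.17, chr11:51600100-51606847), which encodes an A/B-type hnRNP also called CBF-A. It was counted at 216, 167 and 439 CPM in Ctr and 217, 230.2 and 211 CPM in KO, so Ctr replicate 3 was 2.1 times the mean of the other 5 libraries. Sf3b3, the SF3B subunit that packs against the branch point protein, was at 175, 167 and 392 CPM in Ctr and 204, 191 and 201 CPM in KO, a ratio of 2.09. The KO libraries of both genes lay close together and between or just above the other Ctr libraries. U2af1 (ENSMUSG00000061613.12, chr17:31647081-31658892) was at 56.3, 39.1 and 95.3 CPM in Ctr and 60.3, 52.3 and 44.9 CPM in KO, a ratio of 1.88. Hnrnpf, which binds G-tracts as Hnrnph3 does, had a ratio of 1.81, and Prpf31, a tri-snRNP assembly factor, 1.66.

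Other genes were also higher in that library. The 12 myogenic markers summed to 7321 CPM in Ctr replicate 3 and to 4766 to 5457 CPM in the others, with most of the excess in Sdc4, at 2714 CPM there and 891 to 1401 CPM elsewhere, and in Vcam1, at 952 CPM there and 515 to 674 CPM elsewhere. Itga7, which encodes the α7-integrin of the gate, was also highest there, at 555 CPM against 373 to 483 CPM elsewhere. Des was at 745 CPM there and 586 to 694 CPM elsewhere. Calcr and Myf5 were instead lowest in that library. Calcr was at 129.5 CPM there and 213 to 263 CPM elsewhere, and Myf5 at 301 CPM there and 318 to 394 CPM elsewhere. Cd34, used in the gate, was at 195 CPM in Ctr replicate 3 and in the first KO library, and at 225 to 302 CPM in the others. The remaining myogenic markers lay within the range of the other libraries. The 5 mural cell markers summed to 424 CPM in Ctr replicate 3 and 156 to 219 CPM elsewhere, mostly through Acta2. The 6 fibro-adipogenic markers summed to 4509 CPM there and 2501 to 4166 CPM elsewhere. Their part in the levels of the splicing genes was not tested.

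The direction of the genotype comparison turned with this library. Ctr replicate 3 was singled out for its high values of these same genes. Leaving it out therefore lowers the Ctr mean of most of them by construction. The fit without it describes this dependence and is not support for a difference between genotypes. With all 6 libraries, 19 of the 68 genes had a higher mean in KO, where 45% of all genes and 48% of genes of at least 10 CPM did, and the median log2 fold change was -0.07 against -0.03 for all genes. Without Ctr replicate 3, 46 of the 68 were higher in KO, where 48.4% of all genes and 57.2% of genes of at least 10 CPM were, and the median was 0.07. Of the 68, 7 then had an unadjusted p under 0.05 where 8% of all genes and 11.1% of genes of at least 10 CPM did, and again 0 were called by edgeR, against 0.363% of all genes.

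Of the 12 Snrp genes, 9 had a higher mean in KO and the family's median lay at 0.11 (log2 fold change), and without Ctr replicate 3 the numbers were 11 and 0.30. Among the 7 genes of the Sm ring, the median moved from 0.15 to 0.35 in the same step. Snrpd2 (ENSMUSG00000040824.3, chr7:19149722-19153542), an Sm ring gene, was at 36.1, 31.8 and 41.4 CPM in Ctr and 38.7, 45.2 and 45.6 CPM in KO. KO replicates 2 and 3 were above every Ctr library, the first KO library was not, and the log2 fold change was 0.24 ± 0.15 (edgeR, adjusted p = 0.843). Snrpe, another ring gene, was at 27.7, 23.9 and 32.7 CPM in Ctr and 31.6, 31.5 and 35.5 CPM in KO, with groups that overlap.

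Of the genes with an unadjusted p under 0.05 in the fit without Ctr replicate 3, 5 were Snrp genes (Snrpa1, Snrpd1, Snrpd2, Snrpd3 and Snrpe) and the others were Prpf31 and Sf3a1. Since that library was singled out from the values of the whole set, these p-values are a description only. Snrpd3 and Snrpa1 are named here after their values were seen. Snrpd3 had the lowest adjusted p of the 7, 0.424 by edgeR, at a log2 fold change of 0.39. Snrpd1 was at 20.1, 15.5 and 34.5 CPM in Ctr and 24, 23.1 and 22.3 CPM in KO, so its value moved from -0.01 ± 0.26 to 0.38 ± 0.15. The KO libraries of Snrpd1 lay close together, and the spread was all among the Ctr libraries. Snrpa, which encodes the A protein of the U1 snRNP, had 42.1 ± 8.16 CPM in Ctr and 46.6 ± 1.64 CPM in KO (SD, n = 3 each).

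The promoters of 59 of the 68 genes were found among RefSeq promoters of GRCm38.p6, and the 250 bases before the annotated start were searched on both strands. Genes not found there included Snrpb, Snrpd1 and U2af2. Below are shown the gene with the lowest p, the gene with the greatest excess in Ctr replicate 3, the Snrp gene described first above and the SR gene with the highest level per kb, at chr6:51469895-51470144 (minus strand), chr11:51606882-51607131 (minus strand), chr7:19149588-19149837 (plus strand) and chr12:80945249-80945498 (plus strand). Capitals mark the searched motifs, given further down.
Hnrnpa2b1: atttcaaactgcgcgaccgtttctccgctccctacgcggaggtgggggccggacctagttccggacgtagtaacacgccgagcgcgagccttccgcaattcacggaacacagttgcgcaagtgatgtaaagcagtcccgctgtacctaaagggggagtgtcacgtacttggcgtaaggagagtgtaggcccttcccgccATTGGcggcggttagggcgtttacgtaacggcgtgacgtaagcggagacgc
Hnrnpab: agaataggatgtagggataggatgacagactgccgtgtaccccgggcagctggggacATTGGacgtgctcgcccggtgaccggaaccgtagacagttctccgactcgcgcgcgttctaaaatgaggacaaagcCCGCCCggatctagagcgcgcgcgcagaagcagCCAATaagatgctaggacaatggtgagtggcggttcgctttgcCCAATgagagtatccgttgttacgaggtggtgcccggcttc
Snrpd2: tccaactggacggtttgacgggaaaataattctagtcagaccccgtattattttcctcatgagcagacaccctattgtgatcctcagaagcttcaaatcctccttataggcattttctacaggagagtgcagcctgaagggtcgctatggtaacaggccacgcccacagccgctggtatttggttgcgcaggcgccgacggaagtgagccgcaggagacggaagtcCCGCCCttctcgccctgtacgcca
Srsf5: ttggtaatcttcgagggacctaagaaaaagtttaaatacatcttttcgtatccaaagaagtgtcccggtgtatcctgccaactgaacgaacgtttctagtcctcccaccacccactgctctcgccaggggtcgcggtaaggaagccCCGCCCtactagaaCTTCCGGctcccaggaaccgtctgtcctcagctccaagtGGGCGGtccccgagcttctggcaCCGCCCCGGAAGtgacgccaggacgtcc

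The 9-letter GLI consensus GACCACCCA was in 0 of the 59 promoters, and in 0.255% of the 27025 genes with a promoter. The letters CCAAT, the box bound by NF-Y, were in 29 of the 59, against 37.5% of all genes and 40.2% of genes of at least 10 CPM. In the sequences above, Hnrnpab held 3 such boxes and Hnrnpa2b1 held 1, on the opposite strand. The GC box GGGCGG was in 40 of the 59 (35.4% of all genes and 67% of genes of at least 10 CPM), and Srsf5 held 3. The ETS letters CCGGAAG were in 18 of the 59 (7.83% and 17.3%), including 6 of 7 Sf3 genes and 2 of 18 Hnrnp genes, and in Srsf5 1 of its matches overlaps a GC box. The E-box CACGTG was in 7 of the 59 (6.86% and 10.8%), the cAMP response element TGACGTCA in 2 (1.77% and 3.35%) and TATAAA in 6 (14.3% and 7.39%). A gene with several promoters counts once, and a match describes letters only.

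Splicing genes outside the 68 were taken from a list of 179, of which 177 were counted: proteins of the other snRNPs, the LSm ring, the SMN complex that loads Sm rings, kinases of SR proteins, the exon junction complex, activation factors and tissue-specific regulators. edgeR called 0 of the 177, against 0.351% of all genes, and gave 4 at an unadjusted p under 0.05, where 7.11% of all genes had such a p. A higher mean in KO was found for 65 of the 177, where 45% of all genes had one, and for 105 of the 177 without Ctr replicate 3. Their median log2 fold change was -0.05 with all libraries. Ctr replicate 3 was the highest library for 98 of the 177, against 23.2% of all genes. DESeq2 called 1 of them, Rbfox1, against 1.53% of all genes.

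Rbfox1 encodes a regulator of muscle and neuronal exons that reads UGCAUG. It was counted at 2.61, 0.993 and 1.32 CPM in Ctr and at 0.439, 0.239 and 0.334 CPM in KO. All KO libraries were below all Ctr libraries, with a log2 fold change of -2.28 ± 0.47 and an adjusted p of 0.133 by edgeR. Nova2, a regulator of neuronal and endothelial exons, was at 2.63, 2.46 and 1.9 CPM in Ctr and 1.64, 1.22 and 0.649 CPM in KO, also without overlap, with an adjusted p of 0.599 by edgeR. The 5 Schwann cell markers, all counted, moved the same way: their sum was 106, 86.7 and 123 CPM in Ctr and 39.6, 59.2 and 59.9 CPM in KO. None of the Schwann markers was called by edgeR. Their part in the levels of Rbfox1 and Nova2 was not tested.

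Another 3 of the listed genes were named for their low p. Rnps1, an activator that sits in the exon junction complex, was at 93.6, 88 and 130 CPM in Ctr and 68.2, 67.8 and 81.5 CPM in KO, a log2 fold change of -0.52 ± 0.18 (edgeR, adjusted p = 0.513). Zmat5, which encodes a protein of the minor spliceosome's U11/U12 particle, was at 7.95, 9.49 and 7.08 CPM in Ctr and 5.44, 5.46 and 6.2 CPM in KO. Lsm6, of the LSm ring on U6 RNA, was the only one of the 5 higher in KO, at 58.9, 60 and 49 CPM in Ctr and 64.1, 67.1 and 77.5 CPM in KO. None of these groups overlaps, and none passed the adjustment. Genes picked for a low p tend to have separate groups. Among the 177, all KO libraries lay above all Ctr libraries for 5 genes and below them for 8. Of all genes, 13% had groups that do not overlap.

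The values of several of the 68 genes depend on how reads were shared with pseudogenes. Splicing and hnRNP genes have left many processed copies in the mouse genome, and the authors' counting with salmon divides reads that fit several transcripts. Of the pseudogenes counted, 74 had at least 90% identity to a transcript of 22 of the 68 genes. Hnrnpa3 had 31 of them, Hnrnpa1 had 12 and Hnrnpf had 6. Most were hardly counted: 61 had a mean under 1 CPM and 7 had at least 10 CPM.

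The clearest case was Hnrnpa3, whose protein is a close relative of hnRNP A1. Its pseudogene Gm5641 had 0 mismatches over the 1074 bases of the coding part and was given 217 CPM on average, 33.3% of the pair. Gm10052 had 0 mismatches to Hnrnpa1 over 960 bases, and was given 101 CPM against 632 CPM for Hnrnpa1. Between such sequences a read from the coding part cannot be assigned. Levels of these genes are therefore uncertain, as are those of their copies.

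Snrpf, the Sm ring gene with the lowest count, was given less than its copy. Gm13092 (chr4:150315177-150315436) stood at 19, 15.4 and 26.9 CPM in Ctr and 19.4, 21 and 22.1 CPM in KO, while Snrpf stood at 8.91, 6.02 and 10.7 CPM in Ctr and 8, 8.56 and 11 CPM in KO. The pseudogene was thus above the gene in every library and took 69.9% of the pair. It differed from the coding part of Snrpf at 4 of 260 bases, and 79.6% of stretches of 75 bases were identical. All 4 differences fall between bases 2 and 76 of the coding part, shown here from GENCODE vM21 (GRCm38) with the differing bases in capitals.
Snrpf: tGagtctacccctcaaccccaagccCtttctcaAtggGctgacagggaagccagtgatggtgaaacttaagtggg
Gm13092: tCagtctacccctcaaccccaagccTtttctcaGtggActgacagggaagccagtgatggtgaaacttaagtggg

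Snrpd2 and U2af1 had similar copies at lower shares. Gm10120 differed from Snrpd2 at 4 of 357 bases and took 27.7% of the pair, and 42% of stretches of 75 bases were identical. Gm10232 differed from U2af1 at 2 of 720 bases and took 27.5% of the pair. The stretches that hold 2 of the differences each are bases 52 to 126 of Snrpd2 and bases 116 to 190 of U2af1, with capitals as before.
Snrpd2: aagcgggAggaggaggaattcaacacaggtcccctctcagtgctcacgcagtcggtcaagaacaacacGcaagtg
Gm10120: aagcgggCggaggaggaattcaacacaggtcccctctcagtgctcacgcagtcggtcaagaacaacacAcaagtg
U2af1: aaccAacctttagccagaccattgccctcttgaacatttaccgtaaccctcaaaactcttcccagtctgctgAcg
Gm10232: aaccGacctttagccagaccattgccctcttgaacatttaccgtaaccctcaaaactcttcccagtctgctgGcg

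**Figure D4:**
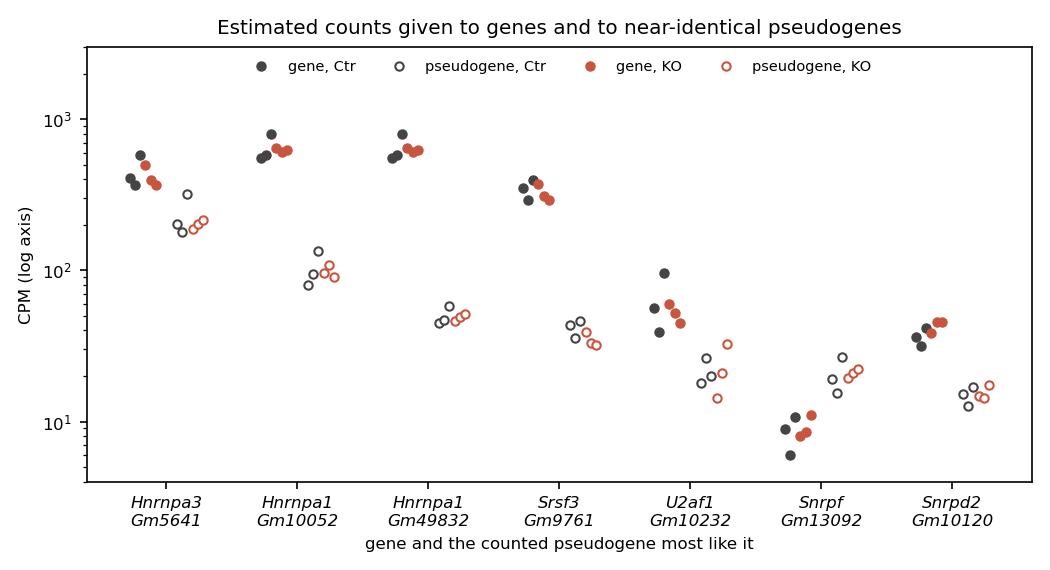
CPM (log axis) of 6 of the genes (filled) and of the 7 counted pseudogenes of at least 10 CPM that resemble them (open), in each QSC library, Ctr in grey and KO in red; Hnrnpa1 appears with each of its copies that reached this level. Snrpf is the only one of these genes below its copy, in all 6 libraries.

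Ctr replicate 3 was the highest library for 5 of the 7 copies of at least 10 CPM, among them Gm5641 at 201, 179.5 and 318 CPM in Ctr and 188, 202 and 216 CPM in KO. The other copies, Gm10232 of U2af1 and Gm10120 of Snrpd2, were highest in KO replicate 3, and with Gm10232 added the ratio of Ctr replicate 3 to the other libraries for U2af1 went from 1.88 to 1.58. None of the 74 pseudogenes was called, and 2 are named here after their values were seen. The Hnrnpl copy Gm45246 had the lowest adjusted p, 0.0954 by edgeR, at 3.4, 2.13 and 1.6 CPM in Ctr and 6.53, 6.91 and 6.84 CPM in KO. The Hnrnpf copy Gm12435 was at 8.32, 13.9 and 17.7 CPM in Ctr and 5.15, 7.37 and 3.3 CPM in KO, with an adjusted p of 0.288 by edgeR. The groups of these copies do not overlap, in opposite directions. Separate groups were rarer among the 74 than among all genes, where they made up 13%. Of the 74, 61 had a mean under 1 CPM, so this is not a comparison at like levels. When the counts of each pseudogene were added to its gene, edgeR again called 0 of the 68 and the lowest adjusted p was 0.707. For Snrpn, whose copies Gm5802 and Gm35595 took 24.2% and 8.3% of their pairs, adding them moved the log2 fold change from 0.04 ± 0.23 to -0.20 ± 0.26. Snrpn also overlaps Snurf and Gm38393 on the same strand, and these were counted at 0.252 to 0.701 and 2.38 to 4.4 CPM.

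The deposited mean over all 12 libraries of the series gives a limited view of the ASCs. The authors averaged their size-factor-scaled counts, without giving a value per library, and the average includes the QSC libraries. It was divided by the mean of the QSC libraries and scaled so that the median of genes of at least 1 CPM is at 1. A ratio above 1 means that the gene stood higher in the other 6 libraries than in QSCs relative to that median. No error or test can be given for it. The authors' mean and the CPM given here were normalized separately, and the genotypes of the ASC libraries do not enter.

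By this measure 55 of the 68 genes were above 1, where 51.6% of all genes and 51.7% of genes of at least 10 CPM were, and 53 of the 68 were under either of the other scalings tried. All 12 Snrp genes were above it, from Snrpb at 1.41 to Snrpd1 at 2.7, with a median of 1.89. Snrpf at 2.46 and Snrpe at 2.28 were among the highest. The ratio was above 1 for 8 of 9 Sf3 genes, 3 of 3 U2af genes, 16 of 20 Hnrnp genes, 9 of 13 Prpf genes and 7 of 11 Srsf genes. Hnrnpab, at 2.49, and Prpf31, at 2.21, had the highest ratio of their families. Both were named above for their excess in Ctr replicate 3. The other genes named there had ratios of 1.76 (Hnrnpf), 1.35 (U2af1) and 1.32 (Sf3b3), where the median of the set was 1.32. Srsf12, at 3.18, had the highest ratio of all, but on counts too low to be read.

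The genes below 1 included some of the most abundant. Srsf5 had the lowest ratio, 0.643, followed by Prpf40b, a U1-associated factor gene, at 0.662, and Hnrnph3 at 0.742. Srsf5 was thus the gene with the highest level per kb in QSCs and the lowest ratio of the set. Hnrnph1, at 0.834, and Srsf6, at 0.89, were also below 1, as was Sf3b1 at 0.913. Outside the 68, all 13 LSm genes and all 12 genes of the SMN complex listed were above 1, with medians of 1.59 and 1.42, and 123 of the 177 listed splicing genes were.

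**Figure D5:**
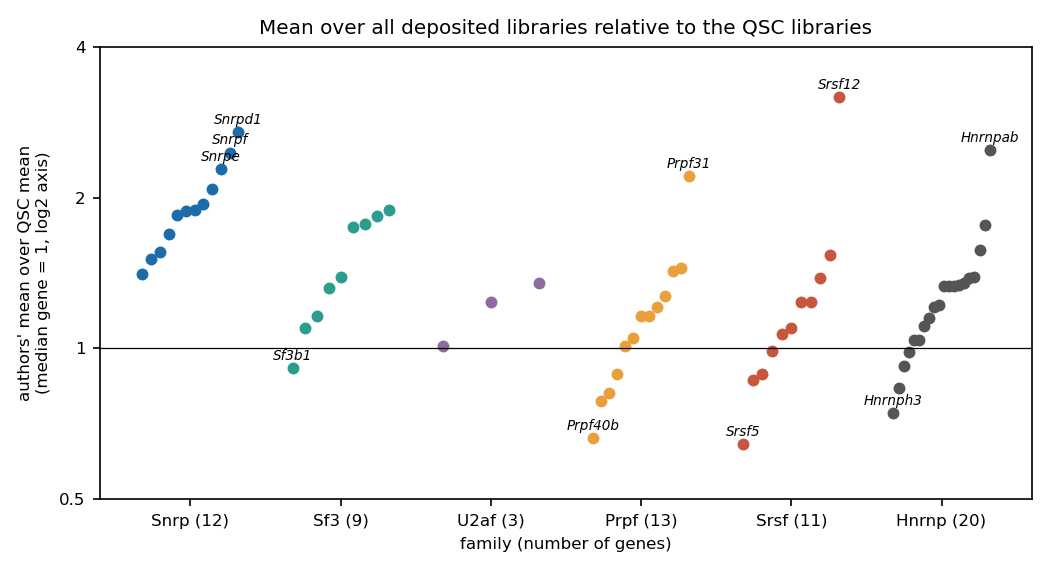
Ratio of the authors' mean over all deposited libraries to the mean of the QSC libraries (log2 axis, median of genes of at least 1 CPM at 1) for the 68 genes, ordered within each family. Each point is a gene and no error can be given. All 12 Snrp genes lie above 1, and Srsf5, Prpf40b and Hnrnph3 are the lowest.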

How the data were processed

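RNA was sequenced by the authors from 12 samples, of which the 6 QSC libraries could be matched to a deposited column. The authors mapped reads with salmon to GRCm38 transcripts of GENCODE vM19, summed them to genes with tximport, and deposited raw estimated counts for 25093 genes. The 6 columns of ASC libraries match no sample label and were not used. The deposited comparison tables hold fold changes, p-values and adjusted p-values of the authors' own DESeq2 comparisons, which were not used. Beside them the authors deposited a mean signal per gene, made from counts scaled by size factors, which is the same in all of these tables and served here as the mean over all libraries.

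Counts were rounded (49.2% were not whole) and tested with edgeR 4.0.16 in R 4.3.3: TMM, quasi-likelihood test, Benjamini-Hochberg adjustment over all genes, and no filter beyond the authors' own. Calls needed an adjusted p under 0.05 together with a 1.2-fold difference. The same comparison was repeated with DESeq2 1.42.0 and with voom and quality weights in limma 3.58.1. The edgeR fit was repeated with size factors of DESeq2, after filterByExpr, on genes reaching 10 counts throughout, blocked by replicate number, with no fold limit and without each library in turn. Adding pseudogene counts to their genes was chosen after seeing the data. Each test was first tried on simulated data with known changes in 200 genes. edgeR recovered 41.2% of the 2-fold and 92.2% of the 4-fold changes. DESeq2 recovered 62.9% of the 2-fold changes and limma-voom 23.7%. Unchanged genes called numbered 15 with edgeR, 58 with DESeq2 and 3 with limma-voom.

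Pseudogenes were found with blastn 2.17.0 (at least 90% identity over at least 200 bases or 90% of the pseudogene) in GENCODE vM21, where 96.3% of the genes carry the same version; positions and exon lengths come from there too. The text names the 10 genes with the lowest p, the highest and lowest gene of each family, 21 fixed genes and the 5 other splicing genes with the lowest p. Other genes named for the library excess, the ratio or a pseudogene, and the 2 other scalings of the ratio (totals of the columns, and the median of genes of at least 10 CPM), were chosen after the values were seen. The members and lists were chosen with earlier results of these data known. The planned tests in ASCs and of cell states were not run, since no ASC column could be mapped. Exact tests of 3 against 3 libraries cannot go below p = 0.1. The values of a few genes are left out of the text and are not reported here.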

Additional observations from a re-analysis of the deposited data

How the results depend on the processing

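Under every alternative run, 0 of the 68 splicing and hnRNP genes were called, and the lowest adjusted p of any of them was 0.424. The number of all genes called was 384 with DESeq2 and 48 with at least 10 counts in every library, against 88. Leaving out 1 library gave 58 to 103 genes, with the 58 reached without KO replicate 3. The number of the 68 with a higher mean in KO, 19, became 38 with limma-voom and 14 to 46 on leaving out 1 library, and it was 46 without Ctr replicate 3. The median log2 fold change of the 68, -0.074, was 0.018 with limma-voom and ranged from -0.133 to 0.068 on leaving out 1 library, while the other tests, scalings and filters kept it below 0. DESeq2 called 1 of the other splicing genes, Rbfox1, where edgeR called 0; its adjusted p over the alternatives ran from 0.00191 to 0.47. The cause of these shifts between tools was not tested. The replicate numbers gave no sign of pairing the libraries. Deviations of same-numbered libraries correlated at -0.182, -0.0667 and -0.0474, and those of differently numbered libraries at -0.152 to 0.241. Such correlations cannot show that no pairing exists. With the replicate block 79 genes and 0 of the 68 were called, and 23 of the 68 were higher in KO. With 3 libraries per genotype, differences smaller than the intervals given for each gene may be missed.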
